A study of Saccharomyces cerevisiae with 45 samples.

Results

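Ergosterol synthesis was followed here through 31 of the 5449 yeast genes on the arrays. They are the 20 genes with a symbol of ERG and a number, and HMG1, HMG2, MVD1, IDI1, NCP1, CYB5, ECM22, ARE1, ARE2, HES1 and MOT3. Every one was represented by 1 probe set. By role, 9 belong to the mevalonate pathway, 3 to squalene and lanosterol formation, 10 to the steps between lanosterol and ergosterol, 4 are electron donors or scaffold proteins, and 5 are regulators, esterifying enzymes or a transport protein.

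Ergosterol is the main sterol of fungal membranes, the counterpart of cholesterol in animals, and sets how ordered and permeable the plasma membrane is. Acetyl-CoA is built through mevalonate into farnesyl diphosphate, which is joined to squalene, oxidised in an oxygen-dependent step, closed to lanosterol and then trimmed, methylated and desaturated in the endoplasmic reticulum. Several late enzymes contain heme or iron and draw electrons from the reductase NCP1 or the cytochrome CYB5, and surplus sterol is esterified and stored in lipid droplets.

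The cells were Saccharomyces cerevisiae labelled strain BY4147, mating type a, with the alleles his3D1, leu2D0, met15D0 and ura3D0 in every group, grown in YPD, a rich medium, and heated in a water bath. The heated groups were 37 °C for 1, 3, 5, 7, 10, 15, 40 and 80 min with 3 arrays each, 42 °C for 3, 5, 10 and 40 min with 2 arrays each, and 46 °C for 10 and 30 min with 2 arrays each. The unheated groups were 25 °C cells of batch A863 (3 arrays), the reference for 37 °C, and of batch A927 (2 arrays), the reference for 42 °C. The 80 min arrays at 37 °C came from batch A705 and the 46 °C arrays from batch P230, neither with an unheated array; the first were set against the A863 control and the second against the mean of both controls. Nothing in the labels ties a replicate to a culture of its own; the spread behind each p-value is that between arrays and may be technical. The times of a temperature share their control arrays, whereas 37 and 42 °C have separate ones.

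Values are log2 intensities, on which a difference of 1 is a 2-fold difference, and levels of different genes are not compared in amount because each probe set has its own brightness. A gene rose or fell where limma's moderated test gave an adjusted p under 0.05 (Benjamini-Hochberg over all 5449 genes) and a log2 change of at least 1. Array medians were 10.20 to 10.26 in batches A863 and A705, 10.12 to 10.20 in A927 and A961, and 9.85 to 9.86 in P230, and the level of probe sets without a target was 5.32, 5.51 and 4.56 in these sets. Of the 31 genes HES1 alone had a group mean below that level, 5.20 at 37 °C 10 min. The heat label was borne out by HSP104, a disaggregase, which read 12.51 to 14.75 in the 37 °C arrays, against 11.97 to 12.03 in the A863 control. Of the deleted markers, URA3 read 3.88 to 5.34, LEU2 4.50 to 5.93 and MET17, the met15D0 locus, 3.99 to 5.44, whereas HIS3 read 10.27 to 12.38. URA3, LEU2 and MET17 are among the probe sets that set the level without a target. Their nearness to that level is thus no separate check of the genotype. The arrays labelled 42 °C 1 and 80 min, all of batch A961, were left out because their replicates correlated at 0.61 to 0.62, against 0.9915 to 0.9994 elsewhere.

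Before heating, the ergosterol genes were among the brighter ones. Their mean intensities in the A863 control ran between 6.37 for HES1 and 13.54 for ERG11, with a median of 12.19, against 10.27 for the median gene. Of the 31, 27 lay above that median and 11 above the 90th percentile of all genes (12.66). Intensities near the top of the scale can be compressed, which was not tested.

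At 37 °C 7 of the 31 genes had fallen past the 2-fold limit after 15 min (14.3% of all genes fell), and after 40 min none of these 7 was past it, although 5 of them still read lower than the control by 0.28 to 0.66. The largest falls were in late desaturation and electron supply: CYB5, ERG3 and NCP1. ARE2, which esterifies sterol, and the scaffold gene ERG28 went up instead. At 42 °C CYB5 alone had fallen by 10 min, and 7 genes were down and 3 up at 40 min, 32.3% of the 31 genes against 45.6% of all genes.

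**Figure D1:**
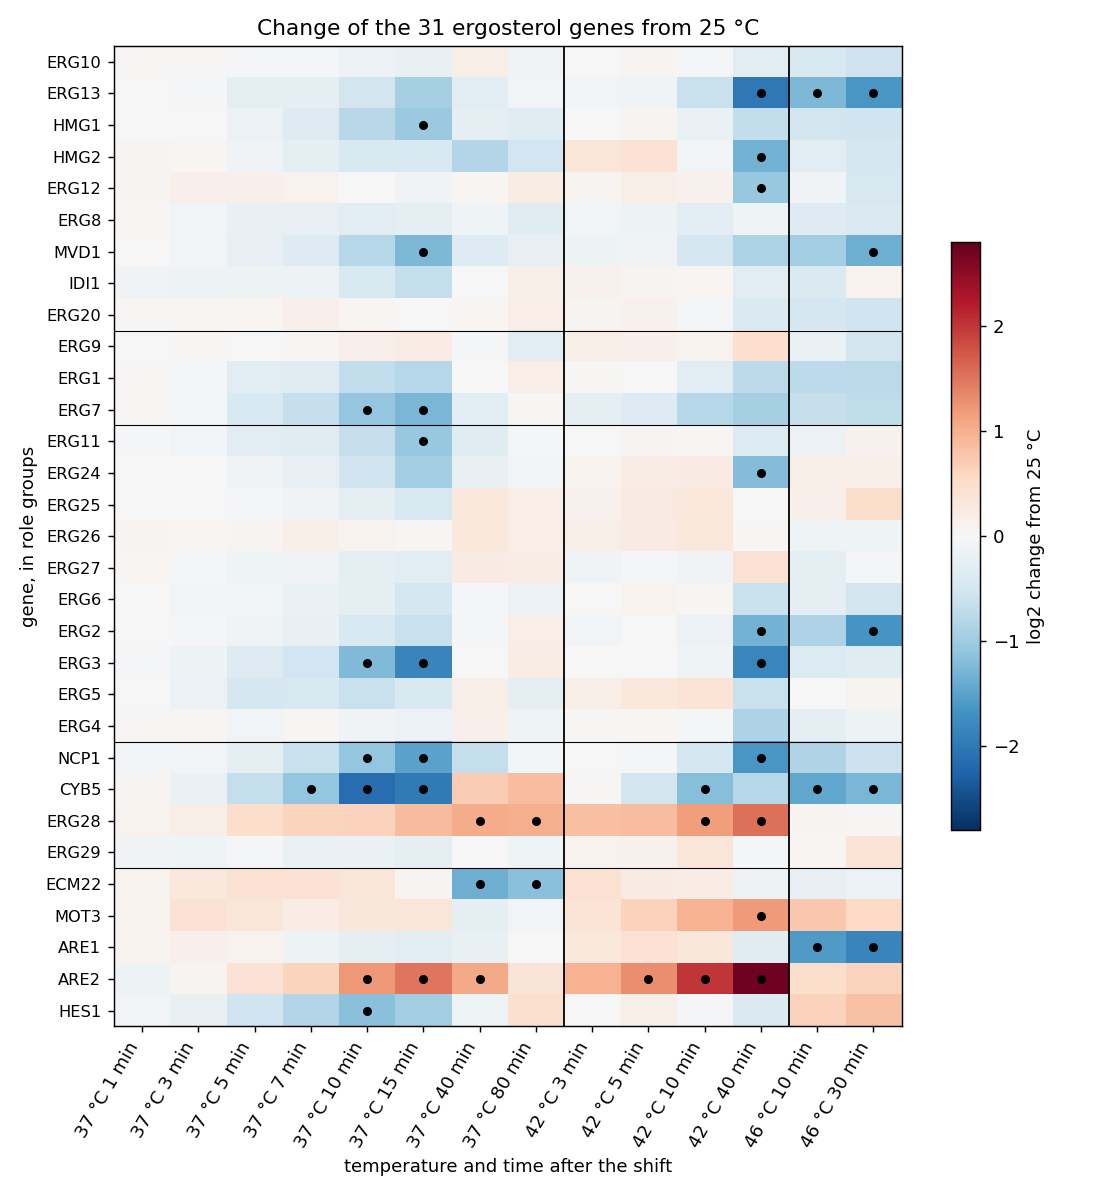
Log2 change of each of the 31 genes (down the page, in role groups) from 25 °C for each temperature and time (across); blue is lower and red higher than the control, and a dot marks an adjusted p under 0.05 with a log2 change of at least 1. The blue column at 37 °C 15 min pales by 40 min, while at 42 °C the deepest blue stands at 40 min, with ARE2 at 2.73 the reddest cell.

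Among all genes 0.239% changed at 37 °C 1 min, 3.25% at 3 min and 11.5% at 5 min, and 0 of the 31 ergosterol genes did at any of these times. At 7 min CYB5 alone fell (16% of all genes changed). At 10 min 1 gene rose and 5 fell, where 23.9% of all genes changed. At 15 min 1 rose and 7 fell, 25.8% of the 31 genes against 29.6% of all genes, so the share that changed was near the background. The direction of the 31 genes was uneven: 22.6% of them fell, against 14.3% of all genes, and 3.23% rose, against 15.3%. Their median log2 change was −0.43, against 0.06 over all genes, and 25 of the 31 read below the control. By adjusted p alone, with no minimum size, 23 of the 31 were lower and 4 higher, which is 74.2% and 12.9%, against 39.7% and 45.4% of all genes. The lowest mean of the whole 37 °C course lay at 15 min for 20 of the 31 genes, a count not made over all genes.

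In the mevalonate pathway, 2 of 9 genes fell at 37 °C 15 min, with a group median of −0.43. MVD1, the mevalonate diphosphate decarboxylase, read 11.22, 11.14 and 11.11 at 15 min, against 12.42, 12.40 and 12.44 in the control, a change of −1.26 ± 0.06 (SE, adjusted p = 1.4e-19, limma). HMG1, which encodes an HMG-CoA reductase of the committing step, read 10.49, 10.42 and 10.35, against 11.51, 11.44 and 11.42 in the control, a change of −1.04 ± 0.06. The heated and unheated arrays of both genes were well apart. ERG13, the HMG-CoA synthase, changed by −0.93 and missed the 2-fold limit. HMG2, the other reductase, changed by −0.43 at 15 min and by −0.83 at 40 min, when HMG1 was at −0.28. ERG12, the mevalonate kinase, and ERG20, the farnesyl diphosphate synthase, changed by −0.10 and −0.02, with adjusted p above 0.05.

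Of the 3 genes that make squalene and lanosterol, ERG7 fell. ERG7, the lanosterol synthase, read 10.52, 10.52 and 10.43 at 15 min, against 11.79, 11.74 and 11.79 in the control, a change of −1.28 ± 0.06 (adjusted p = 8.8e-20, limma). ERG1, the squalene epoxidase, changed by −0.80 and stayed within the limit. ERG9, the squalene synthase that draws farnesyl diphosphate into the sterol branch, read slightly higher, by 0.21. The 3 neighbouring steps thus did not read alike on these arrays.

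Between lanosterol and ergosterol, 2 of 10 genes fell at 37 °C 15 min. ERG3, the sterol desaturase, read 10.74, 10.83 and 10.70 at 15 min, against 12.61, 12.60 and 12.58 in the control, a change of −1.84 ± 0.04 (adjusted p = 4.8e-28, limma). All its heated arrays lay far below every control array. It had already fallen by 1.24 at 10 min. ERG11, the lanosterol demethylase that azole antifungals inhibit, read 12.52, 12.44 and 12.45, against 13.49, 13.54 and 13.59 in the control, a change of −1.07 ± 0.06. ERG24, the reductase after it, changed by −0.95. The other 7 changed by between −0.63 (ERG2, the sterol isomerase) and 0.02 (ERG26, the sterol decarboxylase). ERG4, the reductase of the final step, changed by −0.17.

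Among the electron donors and scaffold genes, 2 of 4 fell at 15 min. CYB5, cytochrome b5, which passes electrons to sterol desaturation and demethylation, was the earliest and deepest. It read 9.05, 9.29 and 9.24 at 10 min, against 11.31, 11.35 and 11.34 in the control, a change of −2.14 ± 0.10 (adjusted p = 4.8e-19, limma). The arrays did not come close to overlapping. NCP1, the reductase that serves the P450 enzymes, read 11.60, 11.29 and 11.48 at 15 min, against 12.93, 12.95 and 12.96 in the control, a change of −1.49 ± 0.07. ERG28, the scaffold protein that holds the demethylation enzymes together, went the other way and read 0.88 higher at 15 min. ERG29, required for the methyl sterol oxidase step, changed by −0.28.

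In the last role group 1 of 5 genes rose at 15 min. ARE2, the main sterol acyltransferase in aerobic cells, read 11.73, 11.23 and 11.62 at 15 min, against 10.07, 10.07 and 9.98 in the control, a change of 1.49 ± 0.08 (adjusted p = 1.1e-16, limma). All its heated arrays were above every control array, though 1 of the 3 was lower than the others. ARE1, the second acyltransferase, changed by −0.32. HES1, a member of the oxysterol-binding protein family, fell by 1.17 at 10 min, where its mean lay below the level of probe sets without a target, so the size there may be compressed. ECM22, a sterol-responsive activator of ERG genes, and MOT3, a repressor of some of them, read 0.07 and 0.33 higher at 15 min.

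**Figure D2:**
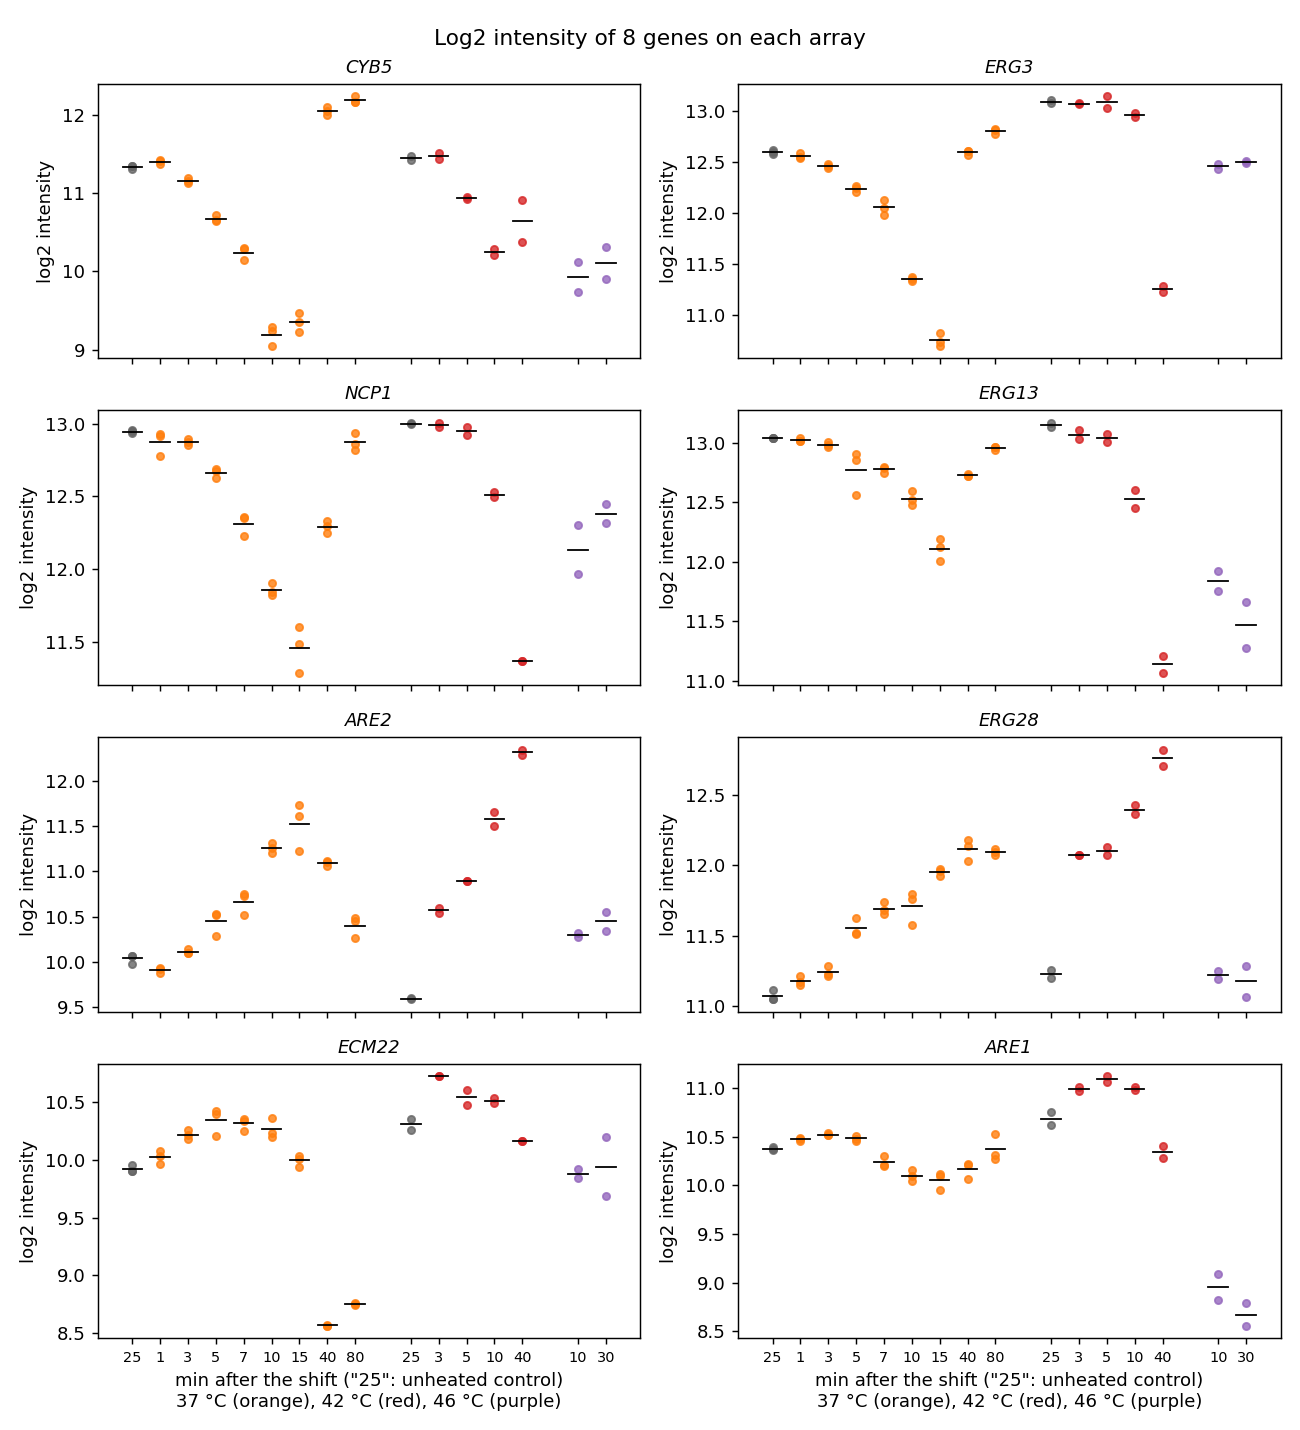
Log2 intensity of 8 genes on every array (points) with group means (bars), for 37 °C (orange), 42 °C (red) and 46 °C (purple) by minutes after the shift, beside the unheated controls (grey, "25"). CYB5 and ERG3 dip at 37 °C and are at or above the control by 40 min, ERG3, NCP1 and ERG13 have their lowest 42 °C values at 40 min, and ECM22 is low in the 37 °C arrays at 40 and 80 min.

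By 37 °C 40 min CYB5 and ERG3 were back at or above the control, and the other 5 genes that had fallen were back in part. CYB5 then read 12.09, 12.00 and 12.04 and ERG3 12.61, 12.60 and 12.56. For CYB5 these are 0.71 above the control, and for ERG3 level with it. The step at 40 min relative to 15 min was 2.69 ± 0.10 for CYB5 and 1.83 ± 0.04 for ERG3 (adjusted p = 2.0e-21 and 3.7e-27, limma), and ECM22 fell by 1.43. These were 3 of the 31 genes, where 16.1% of all genes changed in that step. The median step of the 31 genes was 0.52, against −0.05 over all genes, and 26 of them read higher at 40 than at 15 min. NCP1 remained at −0.66, MVD1 at −0.37, ERG11 at −0.34, ERG7 at −0.31 and HMG1 at −0.28 from the control at 40 min, while HMG2 was further down than at 15 min. By adjusted p alone 8 of the 31 were higher than the control at 40 min and 11 lower, which is 25.8% and 35.5%, against 37.5% and 40% of all genes.

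Against the control, 2 genes rose and 1 fell at 37 °C 40 min (14.3% of all genes changed), and 1 rose and 1 fell at 80 min (7.96%). ECM22 read 8.56, 8.57 and 8.56 at 40 min and 8.75, 8.76 and 8.74 at 80 min, against 9.91, 9.91 and 9.95 in the control. At both times it lay below every unheated array, with changes of −1.36 ± 0.07 and −1.17 ± 0.07. ERG28 was 1.05 and 1.02 higher at these times, and ARE2 was 1.06 higher at 40 min and 0.36 at 80 min. The 80 min arrays are of another batch, and batch and time cannot be told apart there. Set against the A927 control, ERG28 at 80 min was 0.87 higher and no longer past the limit, while ECM22 was at −1.56.

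At 42 °C few of the 31 genes passed the 2-fold limit in the early minutes, a smaller share than among all genes. At 3 min 0 of the 31 genes changed (9.03% of all genes), at 5 min ARE2 alone rose (15.3%), and at 10 min 2 rose and 1 fell (25.6%). ARE2 read 11.66 and 11.50 at 10 min, against 9.59 and 9.60 in the control, a change of 1.99 ± 0.10 (adjusted p = 2.3e-17, limma). ERG28 read 12.43 and 12.36, against 11.26 and 11.20 in the control, a change of 1.17 ± 0.07. Both genes were higher on each heated array than on any control array. CYB5 was the gene that fell, by 1.20. ERG3 changed by −0.13, ERG11 by 0.04 and NCP1 by −0.49 at this time, and the median of the 31 genes was −0.02, against −0.07 over all genes. Within the limit, ERG7 changed by −0.81 and ERG13 by −0.62. By adjusted p alone 10 of the 31 were higher and 10 lower at 10 min, where 4255 of all 5449 genes differed.

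At 42 °C 40 min 3 of the 31 genes rose and 7 fell. Together that is 32.3% of the 31 genes, below the 45.6% of all genes that changed. The share that fell, 22.6%, was close to the 22.4% over all genes, and the share that rose, 9.68%, was below 23.3%. The median of the 31 genes was −0.41, against 0.01 over all genes. By adjusted p alone 21 were lower and 5 higher, which is 67.7% and 16.1%, against 42.9% and 44.1% of all genes. For 23 of the 31 the lowest mean of the 42 °C course lay at 40 min, which was likewise not counted over all genes.

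Of the 7 genes down at 42 °C 40 min, ERG3 and NCP1 had also fallen at 37 °C 15 min. In the mevalonate pathway ERG13, HMG2 and ERG12 fell. ERG13 read 11.21 and 11.07, against 13.17 and 13.13 in the control, a change of −2.01 ± 0.09 (adjusted p = 1.4e-19, limma). HMG2 read 9.61 and 9.50, against 10.96 and 10.81 in the control, a change of −1.33 ± 0.08. Neither gene had overlapping arrays. ERG12 changed by −1.06, and without the first A927 control array by −0.997, inside the limit. HMG1 and MVD1, which had passed the limit at 37 °C 15 min, changed by −0.69 and −0.90. ERG8, the phosphomevalonate kinase, changed by −0.11 (adjusted p above 0.05).

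Of the squalene and lanosterol genes 0 of 3 passed the limit at 42 °C 40 min; ERG7 and ERG1 changed by −0.92 and −0.72, and ERG9 by 0.47. Later in the pathway ERG3, ERG2 and ERG24 fell. ERG3 read 11.23 and 11.28, against 13.07 and 13.10 in the control, a change of −1.83 ± 0.05 (adjusted p = 8.4e-26, limma). ERG2 read 12.42 and 12.33, against 13.72 and 13.65 in the control, a change of −1.31 ± 0.05. ERG24 read 10.94 and 10.72, against 12.07 and 12.03 in the control, a change of −1.22 ± 0.06. These 3 genes stood clear of their controls on each array. ERG11 changed by −0.38, ERG25, the methyl sterol oxidase, by −0.01, and ERG27, the keto reductase, by 0.43, so steps of the same stretch differed in size and sign.

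NCP1 read 11.37 on both arrays at 42 °C 40 min, against 13.01 and 13.00 in the control, a change of −1.64 ± 0.08. CYB5 read 10.38 and 10.90, against 11.48 and 11.41 in the control. Its heated arrays were both lower but apart from each other, and its change of −0.80 ± 0.12 stayed within the limit. Without the second 42 °C 40 min array it was −1.07 and past the limit. ARE2 read 12.35 and 12.29, against 9.59 and 9.60 in the control, a change of 2.73 ± 0.10 and the widest of any of the 31 genes in any comparison with 25 °C. ERG28 rose by 1.54 and MOT3 by 1.19. MOT3 read 9.97 and 9.90, against 8.65 and 8.85 in the control, with no overlap.

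The RNA of the 42 °C 40 min arrays also differed in a measure of integrity. The ACT1 probe set at the 3′ end exceeded the one at the 5′ end by 1.33 ± 0.07 there (SD, n = 2), against 0.75 ± 0.09 in the A927 control. At 37 °C 80 min the excess was 0.92 ± 0.08 (SD, n = 3), against 0.52 ± 0.01 in the A863 control. Its part in the changes at these times was not tested.

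**Figure D3:**
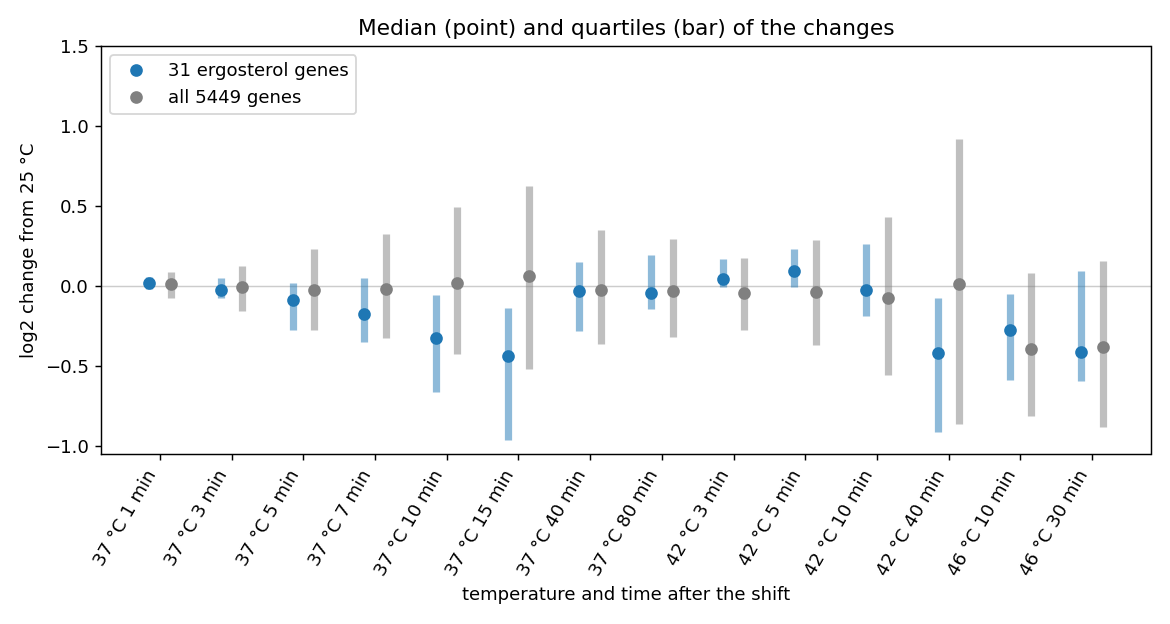
Median (point) and lower to upper quartile (bar) of the log2 change from 25 °C, for the 31 ergosterol genes (blue) and all 5449 genes (grey), by temperature and time. The blue medians are lowest at 37 °C 15 min (−0.43), 42 °C 40 min (−0.41) and 46 °C 30 min (−0.41). The grey ones there are at 0.06, 0.01 and −0.38, and at 46 °C both are below 0.

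Within the 42 °C course, 0 genes rose and 8 fell at 40 min relative to 10 min, where 23.6% of all genes changed. They were ERG13, HMG2, ERG12, ERG24, ERG2, ERG3, ERG5 and NCP1. ERG3 had the widest step, −1.70 ± 0.05, and ERG5, the other sterol desaturase, the narrowest, which lay on the limit and was inside it (−0.99) without the second array of either time. The median step of the 31 genes was −0.39, against 0.15 over all genes.

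The difference between temperatures was tested time by time, by subtracting a gene's change at 37 °C from its change at 42 °C. The 37 °C arrays of these times are of batch A863 and the 42 °C arrays of batch A927. Each change is from the control of its own batch, yet temperature and batch cannot be told apart in their difference. At 3 min 0 of the 31 genes differed by 2-fold or more (2.66% of all genes did), and at 5 min also 0 (3.36%). At 10 min 3 were higher and 0 lower, where 13.9% of all genes differed. ERG3 was 1.11 ± 0.06 higher, HES1 1.14 ± 0.13 and ERG5 1.00 ± 0.13 (adjusted p = 1.0e-15, 6.4e-09 and 7.8e-08, limma). At 42 °C ERG3, HES1 and ERG5 had changed by −0.13, −0.03 and 0.39, against −1.24, −1.17 and −0.62 at 37 °C. The 37 °C value of HES1 lay below the level of probe sets without a target, so its difference has no exact size, and with all arrays quantile-normalised together it was 0.83 and inside the limit. ERG5 sat at the limit: without the second 42 °C 10 min array it differed by 0.99. With no minimum size 21 of the 31 genes had a higher change at 42 °C and 0 a lower one, which is 67.7% and 0%, against 27.3% and 34.2% of all genes.

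At 40 min the difference turned. There 3 of the 31 genes were higher at 42 °C and 6 lower, where 39.3% of all genes differed. ERG3 differed by −1.82 ± 0.06 (SE), with changes of −1.83 at 42 °C and −0.01 at 37 °C. ERG13 differed by −1.70 ± 0.12, with −2.01 at 42 °C and −0.31 at 37 °C. CYB5 differed by −1.52 ± 0.15, with −0.80 at 42 °C and 0.71 at 37 °C, so its courses lay on opposite sides of their controls. ERG2, ERG12 and ERG24 differed by −1.28, −1.11 and −1.02, the last within the limit (−0.91) without the second 42 °C 40 min array. ARE2 was 1.67 ± 0.13 higher, MOT3 1.47 ± 0.14 and ECM22 1.21 ± 0.12. ECM22 had barely moved at 42 °C (−0.15) and was down at 37 °C (−1.36). ERG28, up at both temperatures, differed by 0.49.

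**Figure D4:**
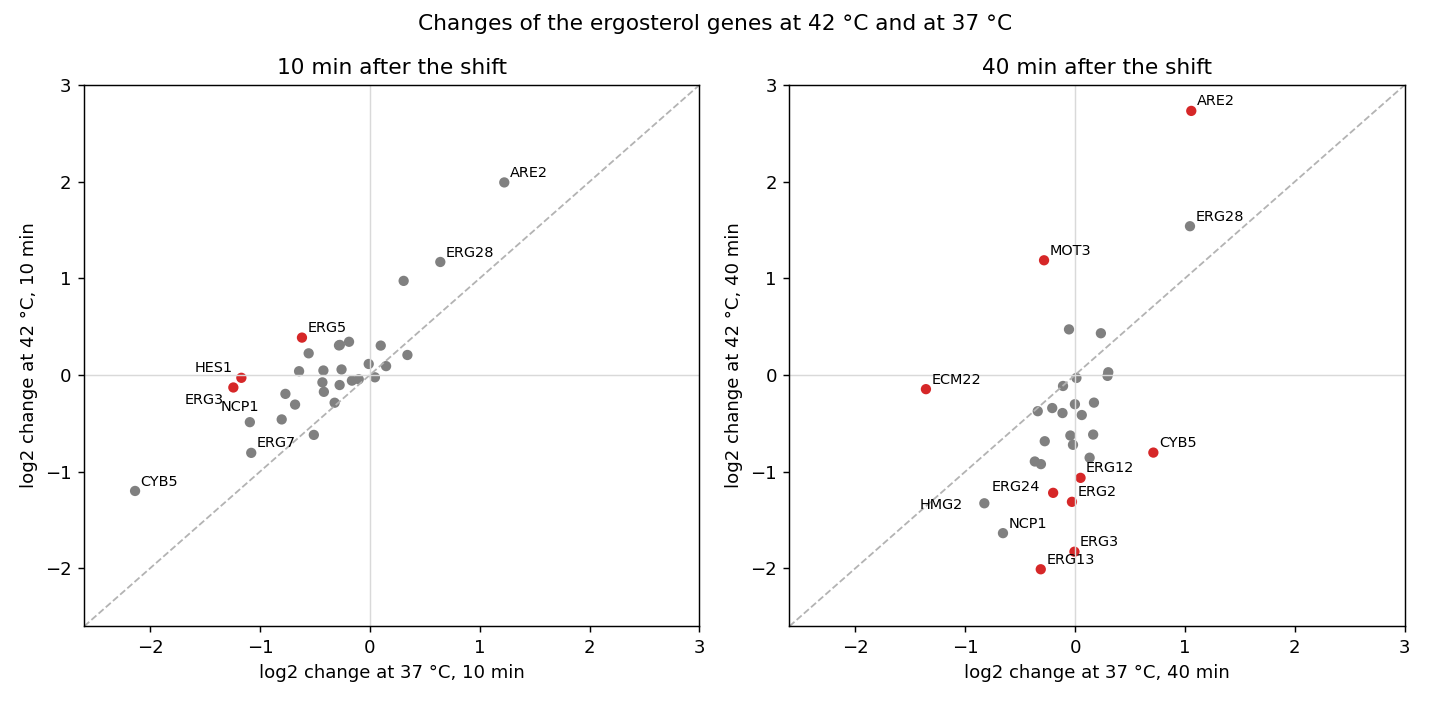
Log2 change of each of the 31 genes at 42 °C (vertical, batch A927) against 37 °C (horizontal, batch A863), at 10 min (left) and 40 min (right). Red points differ between the 42 and 37 °C courses at an adjusted p under 0.05 and by at least 1, and the dashed line marks equal changes. At 10 min most points lie above the line, and at 40 min the red points below it are ERG13, ERG3, ERG2, ERG12, ERG24 and CYB5.

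At 46 °C the arrays were of another batch with no control of its own, and temperature and batch cannot be told apart. The median of all genes read −0.39 at 10 min and −0.38 at 30 min against the 25 °C arrays, and −0.04 and −0.03 once every array was set to a common median. As deposited, 0 of the 31 genes rose and 3 fell at 10 min (25.1% of all genes changed), and 0 rose and 5 fell at 30 min (28.8%). With the common median 1 rose and 2 fell at 10 min, and 1 rose and 4 fell at 30 min. The 25.1% and 28.8% are for the values as deposited, and no share of all genes is given for the common median. The median of the 31 genes as deposited was −0.28 and −0.41, close to that of all genes.

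ARE1 was the gene that stood lowest at 46 °C. It read 9.09 and 8.82 at 10 min and 8.56 and 8.79 at 30 min, against 10.36 to 10.39 in the A863 control and 10.62 to 10.75 in the A927 control. Its changes were −1.58 and −1.86 (SE 0.07) as deposited, and −1.23 and −1.51 with the common median. At 37 and 42 °C it had stayed within 0.41 of its control. ERG2 read 12.01 and 11.88 at 30 min, against 13.49 to 13.55 and 13.65 to 13.72 in the A863 and A927 controls, a change of −1.66 as deposited and −1.31 with the common median. It was below every unheated array. ERG13 and MVD1 changed by −1.63 and −1.38 at 30 min, or −1.28 and −1.03 with the common median.

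CYB5 changed by −1.46 at 46 °C 10 min and −1.28 at 30 min, or −1.11 and −0.93 with the common median, so that only the first passed the limit under both scalings. ERG3, which had fallen at both lower temperatures, changed by −0.38 and −0.34, about the shift of all genes. ARE2 read 0.48 and 0.63 higher. HES1 read 0.64 and 0.83 higher, and 0.99 and 1.18 with the common median, and MOT3 0.76 and 0.56, or 1.11 and 0.91. Between 30 and 10 min at 46 °C 0 of the 31 genes passed the limit, where 0.239% of all genes did. ERG2 had the widest step, −0.80.

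The 25 °C arrays of batch A927 and those of batch A863 gave 0 of the 31 genes past the limit, where 3.51% of all genes passed. By adjusted p alone 17 differed, 15 higher in A927 and 2 lower, which is 48.4% and 6.45%, against 27.6% and 24.7% of all genes. HES1 differed by 0.55, HMG1 by 0.53, ERG3 by 0.49 and ARE2 by −0.45. Differences of this size between the unheated groups stand beside every value that crosses the batches.

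Other genes of sterol supply and use are given next. Between the unheated groups, 1 of 15 further sterol regulators was higher in A927 past the limit and 1 lower, 13.3% of that list. Also higher were 1 of 8 low-oxygen genes and 1 of 9 heme genes, 12.5% and 11.1%, against 3.51% of all genes changed. In the lists of sterol transport, farnesyl diphosphate branches and fatty acids 0 passed. Of 15 further regulators of sterol synthesis 4 rose and 1 fell at 37 °C 15 min, and 7 rose and 0 fell at 42 °C 40 min. These are 33.3% and 46.7% of the list, near the 29.6% and 45.6% of all genes that changed. At these times HRD1, the ubiquitin ligase that degrades HMG2 protein, rose by 1.37 and 2.61, and NSG2, an Insig homologue that binds HMG2 protein, by 1.28 and 2.38. DAP1, a heme-binding partner of ERG11, rose by 1.21 at 37 °C 15 min and 1.95 at 42 °C 40 min. UPC2, the paralogue of ECM22, rose by 1.40 at 42 °C 10 min and 1.18 at 40 min but changed by −0.34 at 37 °C 15 min. HAP1, the heme-responsive activator, rose by 1.09 at 42 °C 40 min. ROX1, the aerobic repressor, rose by 1.52 at 42 °C 40 min and fell by 1.34 at 37 °C 40 min.

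Of 22 genes of sterol transport, ester hydrolysis and acetylation, 4 rose and 3 fell at each of 37 °C 15 min and 42 °C 40 min, 31.8% of the list against 29.6% and 45.6% of all genes. ATF2, the acetyltransferase that marks sterols for export, fell, with changes of −3.81 and −2.78, as did PRY2, a sterol-binding export protein, with −1.72 and −1.97. OSH2, an oxysterol-binding protein, rose by 1.29 at 37 °C 15 min and 2.13 at 42 °C 40 min. NCR1, the vacuolar sterol transporter, changed by 0.83, within the limit, and 1.87 at these times. Of 8 genes of low-oxygen sterol uptake and cell wall 0 rose and 1 fell at 37 °C 15 min, and 3 rose and 1 fell at 42 °C 40 min, 12.5% and 50% of the list against 29.6% and 45.6% of all genes. At 42 °C 40 min PDR11, a sterol importer, rose by 1.17, the wall genes DAN4 and TIR4 by 2.01 and 1.54, and TIR3 fell by 2.67. TIR3 was also the gene that fell at 37 °C 15 min, with a change of −1.23.

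Farnesyl diphosphate also feeds other products. Of 10 genes in those branches 0 rose and 1 fell (MOD5, a transfer RNA modifier, −1.15) at 37 °C 15 min, and 3 rose and 0 fell at 42 °C 40 min, 10% and 30% of the list against 29.6% and 45.6% of all genes. The 3 were NUS1 and SRT1, which build dolichol, at 2.23 and 2.09, and COQ1, of ubiquinone synthesis, at 1.40. Of 9 heme genes 2 rose and 1 fell at 37 °C 15 min and 1 rose and 2 fell at 42 °C 40 min, 33.3% of the list each time against 29.6% and 45.6% of all genes. HMX1, the heme oxygenase that breaks heme down, rose by 2.18 and 2.97. HEM3 and HEM4, of heme synthesis, fell at 42 °C 40 min, with changes of −1.32 and −1.34. At 37 °C 15 min HEM3 also fell (−1.07), HEM4 changed by −0.31 and HEM14 rose by 1.19.

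Of 16 genes of fatty acid synthesis and desaturation 1 rose and 5 fell at 37 °C 15 min, and 1 rose and 7 fell at 42 °C 40 min, 37.5% and 50% of the list against 29.6% and 45.6% of all genes. OLE1, the fatty acid desaturase, fell, with changes of −2.23 and −1.51, as did FAA4, an acyl-CoA synthetase, with −2.41 and −2.10. OLE1 had changed by 0.31 at 42 °C 10 min and −1.42 at 37 °C 10 min. ELO2, a fatty acid elongase, fell at 37 °C 15 min and 42 °C 40 min, with changes of −1.52 and −3.04. FAA3, a further synthetase, changed by −0.77, within the limit, and −2.51 at these times. FAA1, another acyl-CoA synthetase, rose at both, by 1.87 and 2.30. Over this list the median log2 change was −0.59 at 37 °C 15 min and −0.77 at 42 °C 40 min, against 0.06 and 0.01 over all genes.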

How the data were processed

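RNA from heated and unheated yeast was labelled and hybridised to 3′ expression arrays. The deposited values are log2 intensities that the authors summarised with RMA in affy, as the submitters' processing notes name them; their versions and a genome build were not given in the sources used. RMA removes any overall difference in messenger RNA per cell. The values fell into 3 sets of arrays with separate distributions. Of 5900 probe sets, 5498 had 1 gene symbol, and all matched the RefSeq annotation through the gene identifier (12 symbols updated). Where a gene had several (47 genes), the brightest stood for it, which left 5449 genes. No gene was removed for low signal. Whether paralogues such as HMG1 and HMG2 share probe sequence was not checked here.

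A mean per group was fitted in limma 3.58.1 (lmFit, eBayes; R version 4.3.3) to 41 of the 45 arrays, with 25 residual degrees of freedom, unpaired and two-sided. The procedure was tested on simulated data. The 31 genes and all lists were chosen with earlier results of these data known. The rule named every one of the 31 genes, UPC2, HAP1 and ROX1, the label check genes, and from each other list up to 4 changed genes with the widest change at 42 °C 40 min and 2 at 37 °C 15 min. Alternatives covered scaling, filter, arrays, controls, weights, an intensity trend, the replicate number as a block and single arrays left out.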

Additional observations from a re-analysis of the deposited data

Results flagged for a closer look

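The change at 42 °C, in batch A927, differed from that at 37 °C, in batch A863, by a test of the difference in 12 cases. Temperature and batch cannot be told apart in them. They were 9.68% of the 31 genes at 10 min and 29.0% at 40 min, against 13.9% and 39.3% of all genes. At 10 min the change at 42 °C minus that at 37 °C was 1.11 for ERG3, 1.00 for ERG5 and 1.14 for HES1. The HES1 value rests on a 37 °C group mean below the level of probe sets without a target, so its size is not exact, and it was 0.83 and inside the limit with all arrays quantile-normalised together, an alternative chosen after seeing the data. At 40 min it was −1.70 for ERG13, −1.11 for ERG12, −1.02 for ERG24, −1.28 for ERG2, −1.82 for ERG3 and −1.52 for CYB5, and 1.21 for ECM22, 1.47 for MOT3 and 1.67 for ARE2. ERG3 is the 1 gene in both sets, with opposite signs.

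The arrays labelled 42 °C 1 and 80 min entered no comparison. On the 1 min replicate 2 array 10 of the 31 genes lay at least 1 from the A927 control, 3 above and 7 below, and on the 80 min replicate 1 array also 10, 3 above and 7 below. On the 1 min replicate 1 and 80 min replicate 2 arrays 0 did. Minus the control, ERG13 read −1.99 on the 1 min replicate 2 array and −2.06 on the 80 min replicate 1 array, and 0.19 and 0.24 on the other two. These 4 arrays do not pair by their labelled times, and no value of theirs is read by time here. On the 42 °C 40 min arrays 11 and 10 of the 31 genes lay at least 1 from that control. No share of all genes was computed for single arrays, so these counts have no background.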

How the results depend on the processing

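Counts of changed genes under other settings were within 1.5 times the reported count, in 201 of 205 values, and in 135 of 137 with an array left out. Only totals were compared, whichever genes made them up, and a 0 beside a 0 counted as within. At 46 °C 10 min the common median kept a total of 3, with MOT3, higher, in place of ERG13, lower. At 30 min it kept 5, with HES1, higher, in place of CYB5, lower. With no minimum fold change 27 of the 31 genes (4 higher, 23 lower) counted at 37 °C 15 min and 26 (5 higher, 21 lower) at 42 °C 40 min, since the threshold on size was dropped. By that rule 4638 and 4742 of all 5449 genes counted at these times, so the totals were near the background. Against the A927 control 1 gene counted at 37 °C 80 min. With all 45 arrays 1 gene, HES1, counted in the difference between temperatures at 10 min. ERG3 and ERG5 kept their differences of 1.11 and 1.00 there, but adjusted p was 0.14 and 0.051 (limma). ERG24 at 40 min likewise kept −1.02, with adjusted p = 0.14 (limma). The cause was not tested. With an array left out the count ran between 0 and 1 at 42 °C 3 min (1 without its replicate 1) and between 3 and 5 at 46 °C 10 min (5 without its replicate 1).

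The replicate number as a block changed no count: 8 at 37 °C 15 min, 10 at 42 °C 40 min and 3 and 9 in the differences at 10 and 40 min. Each array's deviations from its group mean were correlated between same-numbered arrays of different groups. In batch A863 these correlations averaged 0.03, with single pairs between −0.37 and 0.48, so a shared number showed little link on average. In batch P230, with 2 groups of 2 arrays, the correlation was 0.58. Batch as a random block could not be fitted, since each group lies in 1 batch. For single genes 704 of 728 values kept their direction and side of the limit, and 467 of 488 with an array left out. Of these single-gene values 0 reversed direction. The number of arrays, 2 or 3 a group, limits the precision.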
